A study of Mus musculus with 54 samples.

Results

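The genes described here encode nuclear subunits of the oxidative phosphorylation machinery of mitochondria. They were taken by name from a table of 13611 mouse genes: names that begin with Nduf followed by a, b, c, s or v and a number (complex I), Sdha to Sdhd (complex II), names that begin with Uqcr (complex III), Cox4 to Cox8 followed by a letter (complex IV) and names that begin with Atp5 (complex V). The rule found 76 genes, of which 36 belong to complex I, 4 to complex II, 8 to complex III, 13 to complex IV and 15 to complex V. The rule does not take in every subunit: Ndufab1 and Cyc1, known as subunits of complexes I and III, are listed but do not match it. The name does not fully settle the role. Atp5s and Atp5sl (also called Dmac2) are known as assembly-related proteins, Cox7a2l is known as a factor that joins complexes III and IV, and Ndufa4 is now usually counted to complex IV, although all 4 stay here in the class that their name gives.

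Complexes I to IV pass electrons to oxygen and, except complex II, pump protons across the inner mitochondrial membrane, and complex V (ATP synthase) uses the proton gradient to make ATP. Most subunits come from nuclear genes of short transcripts, and several subunits of complex IV have isoforms that are specific to a tissue. Cells of the gut lining, which absorb and transport nutrients, are known to be rich in mitochondria, whereas resting lymphocytes hold few.

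Messenger RNA was sequenced after gamma radiation in 4 tissues of C57B6 mice and in NIH3T3, a fibroblast cell line derived from mouse embryos. The irradiated groups received 10 Gy. The thymus, spleen, large intestine and small intestine were taken hourly up to 8 h and again at 24 h, and NIH3T3 cells hourly up to 12 h and again at 24 h. The unirradiated group is the single 0 h library of each system, so radiation, time and handling cannot be told apart. All 54 libraries are single, with 10 per tissue and 14 in NIH3T3, and neighbouring hours served as replicates of a time window. The labels give neither age nor sex nor whether animals were pooled, and name no separate cultures. The p-values therefore reflect how these libraries varied within their windows. That spread may be technical and also holds any change between the hours of a window. For each gene it was pooled over the 4 tissues. The unit is FPKM, fragments scaled by transcript length and by library depth, as the authors estimated it.

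Several libraries did not match their neighbours in marker genes of other tissues. The thymus library of 24 h held 5211 FPKM in sum over 5 enterocyte markers, against 8.73 to 21.2 FPKM in the other 9 thymus libraries, and the median over 251 small intestine genes put its content of small intestine RNA at 10.55%. The spleen library of 6 h held 46230 FPKM over 5 pancreas markers, against 8.44 to 141.8 FPKM in the other 9 spleen libraries. In large intestine, 4 colon markers summed to 4188 FPKM at 1 h and to 14960 FPKM at 2 h, against 24120 FPKM at 0 h, and the enterocyte markers reached 19610 FPKM at 2 h. The enterocyte markers marked small intestine, the colon markers large intestine, the T cell markers thymus and the B cell markers spleen in the 0 h libraries. In bulk tissue, fewer cells of a type and less RNA per cell cannot be told apart.

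The 76 genes lie on 19 chromosomes. Their longest coding transcripts have a median of 913 bases, against 3161 bases over all listed genes with an annotated length, and 41 of the 74 members with a length lie under 1000 bases. A total of 20 members overlap a coding gene on the opposite strand, and since the libraries do not record strand, reads of such partners cannot be separated. RefSeq promoter windows, 250 bases before to 50 bases after a start (GRCm38.p6), were found for 65 members. The motif of NRF1, a regulator of nuclear genes for mitochondria, occurred on either strand in the windows of 16 of the 65 members (24.6%) and of 10.6% of 10360 listed genes. The CCGGAAG motif of ETS factors such as GABPA occurred in 15 of the 65 (23.1%) and in 18.7% of listed genes. The CRE TGACGTCA was found in 4 members (6.15%) and 3.42% of listed genes, the SP1 motif GGGCGG in 26 (40%) and 66.4%, CCAAT in 29 (44.6%) and 42.4%, and a p53 half-site in 4 (6.15%) and 8.32%. Motifs were counted separately and may share bases, and a match is a description of the letters only. The windows of 3 members are shown because Cox6b2 and Cox6b1 are alternative forms of the same subunit with different time courses below, and Atp5k is among the complex V genes that fell in thymus. The Cox6b2 window is chr7:4753045-4753344, the Cox6b1 window chr7:30626065-30626364 and the Atp5k window chr5:108434350-108434649, all on the minus strand and written 5′ to 3′ with NRF1 and ETS matches in capitals.
Cox6b2: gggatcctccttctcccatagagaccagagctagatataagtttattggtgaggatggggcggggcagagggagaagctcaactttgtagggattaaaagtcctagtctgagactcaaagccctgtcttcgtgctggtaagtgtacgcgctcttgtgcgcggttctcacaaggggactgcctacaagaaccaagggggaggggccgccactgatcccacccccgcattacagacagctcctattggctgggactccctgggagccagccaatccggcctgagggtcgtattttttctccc
Cox6b1: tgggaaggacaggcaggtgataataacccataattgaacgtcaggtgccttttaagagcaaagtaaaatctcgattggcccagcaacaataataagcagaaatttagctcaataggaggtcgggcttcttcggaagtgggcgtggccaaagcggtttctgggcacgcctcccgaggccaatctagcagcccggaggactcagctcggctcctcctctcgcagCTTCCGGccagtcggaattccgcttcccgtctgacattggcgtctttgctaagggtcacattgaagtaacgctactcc
Atp5k: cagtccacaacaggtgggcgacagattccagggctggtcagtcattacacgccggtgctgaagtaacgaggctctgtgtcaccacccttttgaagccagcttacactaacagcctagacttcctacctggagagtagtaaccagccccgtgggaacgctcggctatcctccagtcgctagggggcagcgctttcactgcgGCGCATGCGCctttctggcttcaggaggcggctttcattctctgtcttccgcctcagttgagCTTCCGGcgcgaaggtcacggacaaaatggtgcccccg
The Cox6b2 window held neither motif, the Cox6b1 window held 1 ETS match, and the Atp5k window held 1 match of each. An NRF1 or ETS match stood in 5 of the 13 windows of members that fell in thymus at 6 to 8 h. It stood in 22 of the 52 windows of the other members.

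On the deposited scale, members stood at the highest FPKM in the gut, although the order of small and large intestine turned round with quantile normalization (values below). The median over the 76 members of their mean FPKM reached 404.7 for small intestine, 261.8 for large intestine, 114.6 in NIH3T3, 110.0 in thymus and 93.95 in spleen. Of the 76, 64 had their highest mean in small intestine, 9 in large intestine and 3 in thymus, and 46 had their lowest in spleen. The order held within complex V, whose members had a median of 812.2 FPKM in small intestine, 467.3 in large intestine, 220.9 in NIH3T3, 157.8 in thymus and 138.5 in spleen. Complex I had lower medians, of 221.2, 176.4, 102.2, 74.39 and 68.93 FPKM in small intestine, large intestine, NIH3T3, thymus and spleen. FPKM is scaled by transcript length, but its accuracy for short transcripts and for genes that overlap others was not tested.

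**Figure D1:**
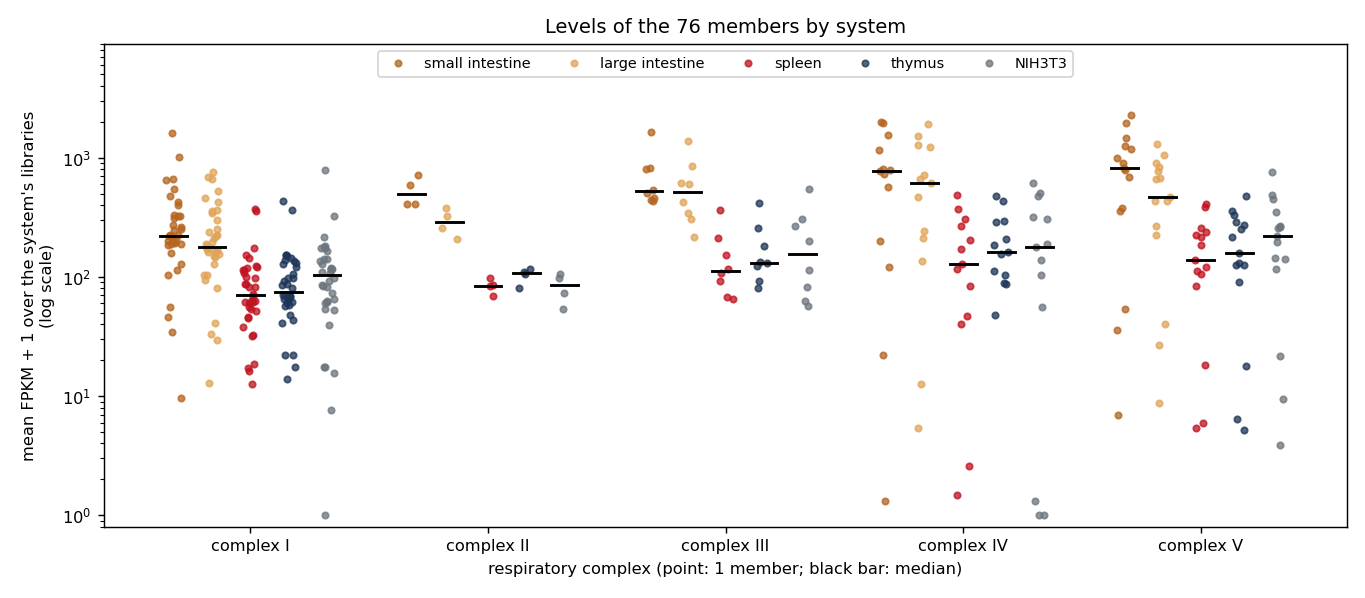
Mean FPKM + 1 of each of the 76 members over the libraries of a system (log scale), grouped by respiratory complex, with 10 libraries per tissue and 14 in NIH3T3; black bars are medians over members. On this deposited scale the intestines stand above spleen and thymus in the median of every complex, and the lowest points in complex IV are isoforms of restricted tissue.

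The subunits with the highest levels show the range. Means over all libraries of a system, here and in the other paragraphs on levels, include the libraries with RNA of other tissues. In the thymus library of 24 h, Atp5b stood at 580.7 FPKM and at 404.5 FPKM with the small intestine share taken off, and Sdhd at 174.3 and 114.1 FPKM. Atp5b, the catalytic beta subunit of ATP synthase, averaged 2284 ± 186 FPKM in small intestine, 1313 ± 160 in large intestine, 764.5 ± 72.6 in NIH3T3, 478.0 ± 69.8 in thymus and 388.5 ± 34.5 in spleen (SD, n = 10 per tissue and 14 in NIH3T3). Cox4i1, the common form of subunit 4 of cytochrome c oxidase, averaged 1988 ± 179 FPKM (small intestine) and 1913 ± 262 FPKM (large intestine), a difference within the spread, against 478.4 ± 62.0 in thymus and 488.9 ± 38.7 in spleen. Sdhd, a membrane anchor of succinate dehydrogenase, averaged 710.2 ± 55.1 FPKM in small intestine, 377.8 ± 65.3 in large intestine, 104.5 ± 28.5 in thymus, 104.5 ± 10.0 in NIH3T3 and 82.89 ± 15.4 in spleen. Uqcrh, the hinge protein of complex III, averaged 1631 ± 112 FPKM in small intestine, 1367 ± 199 in large intestine, 546.4 ± 83.6 in NIH3T3, 412.5 ± 71.5 in thymus and 365.9 ± 62.5 in spleen.

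Levels were tested over the libraries of 1 to 8 h, with 8 libraries per tissue. Here and below the test is limma on log2(FPKM + 1) with Benjamini-Hochberg adjustment over all genes tested, a gene is called at an adjusted p below 0.05, and changes are log2 differences of FPKM + 1 ± SE. The intestines were set against spleen and thymus over 75 members, all but Cox8b. A total of 73 were higher and 2 lower in the intestines, with a median difference of 1.82. Over all 9980 genes tested, 44.1% were higher and 43.2% lower (87.3% in all) with a median of 0.004. Per complex the medians were 1.52 (I), 2.097 (II), 2.07 (III), 2.11 (IV) and 2.06 (V). With quantile normalization, which forces 1 distribution of values on every library and moved the median of all genes by -0.144, 65 members were higher and 5 lower (37.9% and 49.1% of all genes tested), and their median difference was 0.717. The 2 members lower in the intestines were Cox6b2 (-2.12 ± 0.22, adjusted p = 2.07e-09 in limma) and Ndufs5 (-1.85 ± 0.79, adjusted p = 0.0321), and Ndufs5 carries unstable values described below. These level tests hold irradiated libraries only. At 0 h, Cox6b2 stood at 20.72 FPKM in small intestine, 7.065 in large intestine and 7.288 in thymus, with spleen given below. The Cox6b2 difference is therefore one between irradiated tissues.

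Between the intestines the direction depended on the scaling. Set against large intestine, 54 members were higher and 3 lower in small intestine (median 0.375), where 38.5% of all genes tested were higher and 29.8% lower (68.2% in all). With quantile normalization 6 were higher and 40 lower (29.1% and 34.7% of all genes tested), and the median was -0.214. The listed genes summed to between 866900 and 1011000 FPKM in the small intestine libraries and to between 503500 and 666300 in the large intestine libraries. Complex II genes had the highest median difference on the deposited scale, 0.859 for 4 of 4 members, and Ndufa4 differed by 1.26 ± 0.10 (adjusted p = 2.695e-11 in limma), a value of 0.557 ± 0.094 with quantile normalization. Thymus was higher than spleen for 42 members and lower for 6 (median 0.219), where 30.4% of all genes tested were higher and 32.8% lower (63.2% in all), and with quantile normalization for 58 and 1 (median 0.483; 32.8% and 33.1% of all genes tested).

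Isoforms with restricted tissues set some members apart. Cox7a1, the form of subunit 7a known from heart and skeletal muscle, averaged 765.6 ± 113.5 FPKM in small intestine, 240.3 ± 98.2 in large intestine, 86.75 ± 44.3 in thymus, 1.61 ± 1.57 in spleen and 0.322 ± 0.560 in NIH3T3. Its ubiquitous counterpart Cox7a2 averaged 785.8 ± 75.3 FPKM in small intestine, 616.9 ± 93.2 in large intestine, 162.3 ± 36.3 in thymus, 126.9 ± 20.3 in spleen and 178.8 ± 29.0 in NIH3T3. Cox7a1 thus stood about level with Cox7a2 in small intestine, while in spleen and NIH3T3 it was near 0. Cox8b, a form of subunit 8 known from muscle and brown fat of rodents, averaged 183.4 ± 101 FPKM in thymus and at most 4.43 FPKM in any other system, whereas Cox8a averaged 286.3 ± 36.1 FPKM in thymus and 1161 ± 154 in small intestine. Of the 2 genes for subunit c of ATP synthase in the table, Atp5g3 averaged 1949 ± 197 FPKM and Atp5g1 52.91 ± 10.15 FPKM in small intestine.

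No member of the intestines passed the test in any time comparison. In small intestine, 0 of 75 members passed against 0 h in limma, 5 had an unadjusted p under 0.05, and 0.316% of all genes tested were called. The median change was 0.161, and 66 members had a positive value. The largest in complex I was that of Ndufa12, an accessory subunit, with 134.1 ± 13.6 FPKM at 1 to 8 h (n = 8), against 93.7 FPKM at 0 h (0.51 ± 0.23, adjusted p = 0.702 in limma). In large intestine, 0 of 76 members passed and 0 had an unadjusted p under 0.05, with a background of 1.48% and a median change of -0.008. Nor did any member pass between 6 to 8 h and 1 to 5 h in small intestine (0 of 75, 0 with an unadjusted p under 0.05, background 0.518%) or in large intestine (0 of 76, 9 with an unadjusted p under 0.05, background 0.498%). The large intestine count was 2 when the 5 h library was left out and 1 without the 4 h library.

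**Figure D2:**
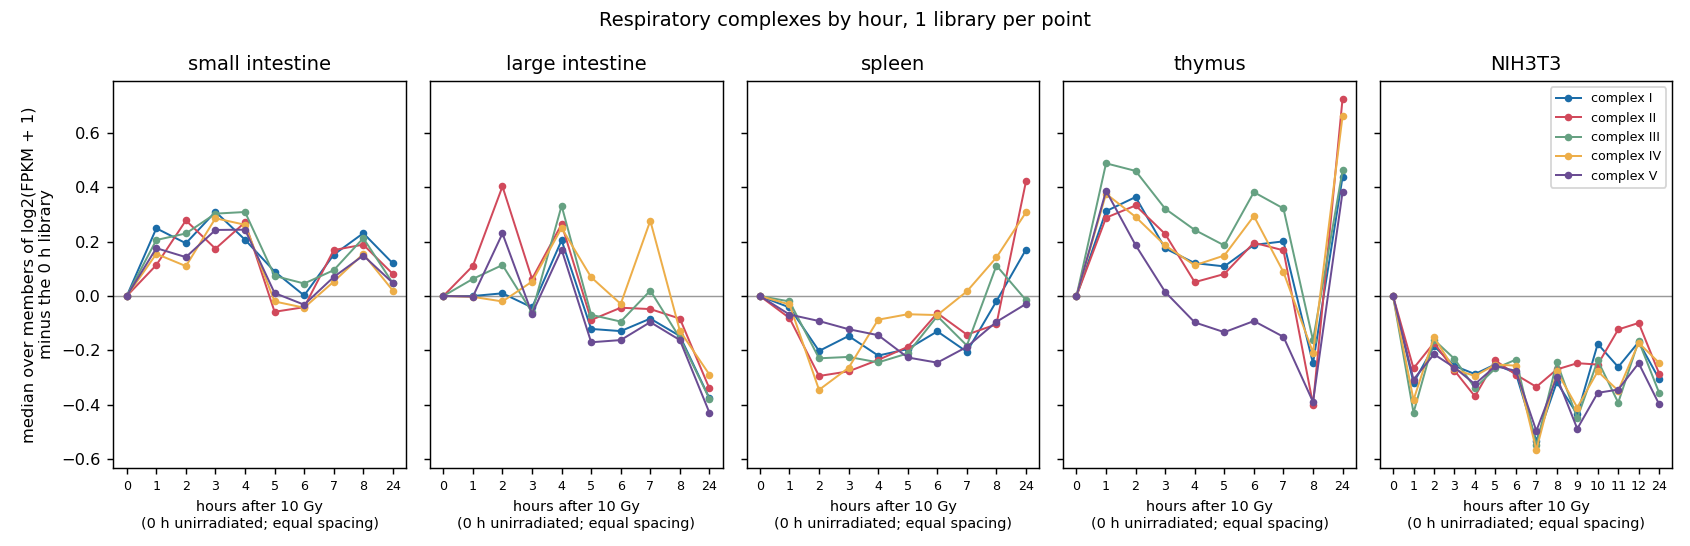
Median over the members of each respiratory complex of log2(FPKM + 1) minus the 0 h library, by hour after 10 Gy, with 1 library per point and hours at equal spacing. Small intestine complexes I and III lie above 0 h at every hour from 1 to 8 h, NIH3T3 lies below 0 h throughout, and thymus falls below 0 h in all 5 complexes at 8 h.

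The hourly medians show how the complexes ran together. In small intestine the complex I median stood 0.249, 0.194, 0.310, 0.207, 0.090, 0.002, 0.152 and 0.231 above 0 h at 1 to 8 h, and complex V ran between -0.032 and 0.244. Complexes I, III, IV and V had their highest value at 3 or 4 h and complex II at 2 h, and all 5 had their lowest at 5 or 6 h. In large intestine, the 4 h library was the highest of 1 to 8 h for complexes I and III, at 0.205 and 0.332, and the 24 h library stood at -0.376 (complex I), -0.340 (II), -0.378 (III), -0.289 (IV) and -0.429 (V). At 24 h against 0 h, 72 of the 76 members had a negative value in large intestine with a median of -0.368, but 0 passed in limma, 21 had an unadjusted p under 0.05 and the background was 0.253%. The 38 proteasome subunits tested had a median of -0.679 in the same contrast, of which 0 passed. In small intestine, 0 of 75 members passed at 24 h against 0 h, 1 had an unadjusted p under 0.05, the background was 0.184% and the median was 0.067.

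Thymus held the largest change of any called member in the time comparisons. Cox6b2, a form of subunit 6b of cytochrome c oxidase known from testis and sperm, had 21.7, 80.4, 113.5, 110.8, 239.9, 196.3, 172.0 and 146.8 FPKM at 1 to 8 h, against 7.29 FPKM at 0 h, and 27.5 FPKM at 24 h. All 8 irradiated libraries lay above 0 h, with the highest at 5 h and the lowest at 1 h. The mean of 135.2 ± 68.8 FPKM (SD, n = 8) was 18.6 times the value of the single 0 h library, a log2 change of 3.78 ± 0.66 (adjusted p = 0.000517 in limma). Over 14 alternatives, the change ran from 3.63 to 4.45 and the adjusted p from 7.95e-05 to 0.0127. Cox6b1, the ubiquitous form, had 466.0, 489.0, 442.2, 375.7, 385.2, 415.3, 440.5 and 340.5 FPKM at 1 to 8 h, against 347.2 FPKM at 0 h. Cox6b1 stood above its 0 h value in 7 of the 8 libraries, and above Cox6b2 in each thymus library.

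Cox6b2 also had later values above earlier ones in spleen. There it had 8.89, 3.08, 16.8, 43.5, 62.7, 87.6, 48.1 and 64.4 FPKM at 1 to 8 h, against 21.5 FPKM at 0 h, and 34.1 FPKM at 24 h. The highest value, at 6 h, comes from the library that held the pancreas signal. The libraries of 6 to 8 h averaged 66.7 ± 19.8 FPKM (n = 3) and those of 1 to 5 h 27.0 ± 25.2 FPKM (n = 5), a log2 difference of 1.85 ± 0.45 (adjusted p = 0.00419 in limma, 0.000569 to 0.0478 over 15 alternatives), although the groups overlap. In large intestine the same hours averaged 18.3 ± 6.44 FPKM (6 to 8 h, n = 3) and 7.29 ± 6.28 FPKM (1 to 5 h, n = 5). The difference of 1.75 ± 0.46 missed the threshold (adjusted p = 0.0826 in limma), and the value at 1 h was listed at 0. In small intestine Cox6b2 had 9.28 to 35.4 FPKM at 1 to 8 h, against 20.7 FPKM at 0 h (-0.08 ± 0.66). In NIH3T3 it was listed at 0 in all 14 libraries. The change of Cox6b2 in spleen and thymus minus that in the intestines was 2.07 ± 0.66 (adjusted p = 0.0827 in limma), which missed the threshold. No member passed that test (0 of 75, 5 with an unadjusted p under 0.05, background 3.02%).

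**Figure D3:**
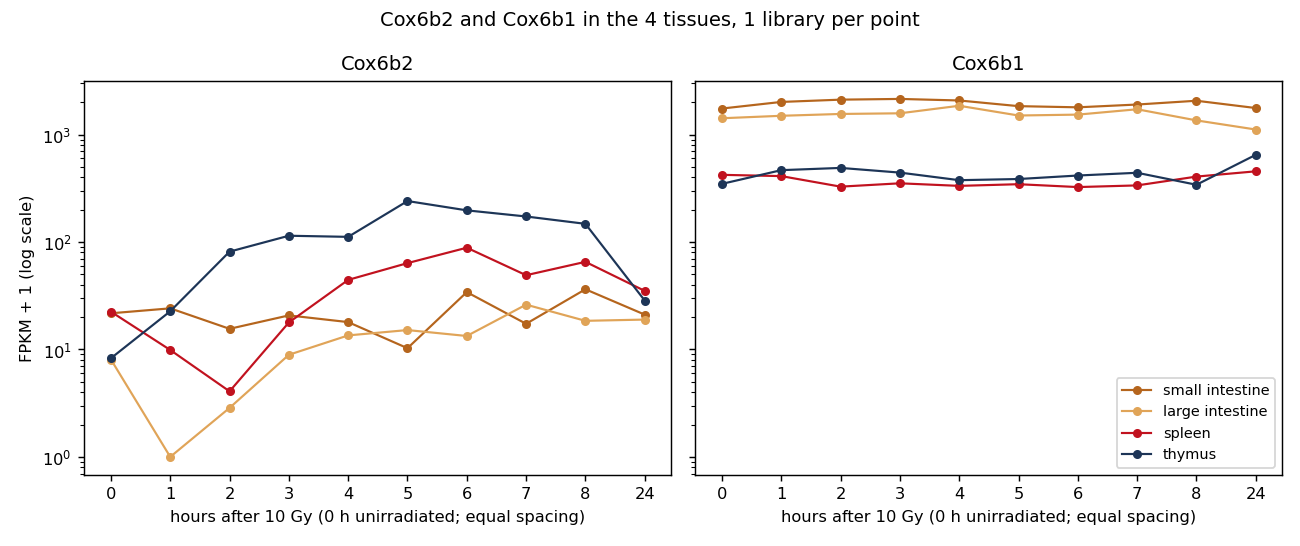
FPKM + 1 (log scale) of Cox6b2 and Cox6b1 by hour after 10 Gy in the 4 tissues, 1 library per point, hours at equal spacing. Cox6b2 climbs to 239.9 FPKM at 5 h in thymus and to 87.6 FPKM at 6 h in spleen, while Cox6b1 stays within 340.5 to 647.7 FPKM in thymus. The spleen library of 6 h is the one that held the pancreas signal.

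Cox6b2 lies at chr7:4751792-4753094 on the minus strand (GENCODE M21, GRCm38) and overlaps no annotated gene. The annotated 3′ end of Fam71e2, on the same strand, lies 131 bases before its start, and Fam71e2 was not analysed here. Suv420h2 (Kmt5c), the neighbour on the other side at a distance of 4277 bases, had 10.6 to 18.5 FPKM in thymus at 1 to 8 h, against 17.9 FPKM at 0 h. The values of this neighbour were highest at 2 h and lowest at 8 h.

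The other member called in thymus over 1 to 8 h was Uqcrb, a subunit of complex III. In these libraries the 3 adipocyte markers summed to between 663.2 and 1764 FPKM, against 352.2 FPKM at 0 h. The 5 T cell markers summed to between 703.5 and 1494 FPKM, against 1613 FPKM. The part of cell composition in the changes of this paragraph was not tested. Uqcrb had 136.0, 146.1, 107.1, 111.4, 125.7, 139.7, 139.3 and 119.2 FPKM at 1 to 8 h, against 82.7 FPKM at 0 h. All 8 libraries lay above 0 h, with a log2 change of 0.62 ± 0.15 (adjusted p = 0.00916 in limma). In all, 2 of 76 members rose and 0 fell in thymus over 1 to 8 h, where 8.29% of all genes tested rose and 3.93% fell (12.2% in all), and the count was 4 without the 8 h library. Among the electron carriers, Etfdh, which feeds electrons from fatty acid oxidation to ubiquinone, rose by 0.81 ± 0.18 (adjusted p = 0.00341 in limma) and its partner Etfa by 0.69 ± 0.22 (adjusted p = 0.0434), as 2 of 10 tested.

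Cox7a1 and Cox8b in thymus moved with genes of brown fat. Cox7a1 had 42.8, 140.7, 86.1, 105.6, 98.5, 127.0, 106.2 and 18.6 FPKM at 1 to 8 h, against 20.1 FPKM at 0 h, and 121.9 FPKM at 24 h. Cox8b had 75.7, 277.2, 232.5, 188.6, 235.4, 330.5, 256.5 and 48.5 FPKM at 1 to 8 h, against 44.5 FPKM at 0 h, and 145.1 FPKM at 24 h. Ucp1, the uncoupling protein that defines brown fat, had 68.3, 218.4, 123.9, 87.8, 121.7, 129.3, 123.3 and 11.7 FPKM at 1 to 8 h, against 29.6 FPKM at 0 h, and 164.6 FPKM at 24 h. All 3 genes were low at 0 h and 8 h and high at 2 to 7 h. With the small intestine share taken off the 24 h library, Cox7a1 stood there at 36.75 FPKM and Cox8b at 162.2 FPKM. Ucp1 and Cidea, the 2 brown fat markers in the table, summed to between 23.8 and 294.6 FPKM at 1 to 8 h, against 43.6 FPKM at 0 h, and the 3 general adipocyte markers to between 663.2 and 1764 FPKM, against 352.2 FPKM. The skeletal muscle markers summed to between 10.7 and 60.9 FPKM at 1 to 8 h, against 25.7 FPKM at 0 h. The 2 heart markers in the table, Myh6 and Myl7, summed to 2.47, 57.7, 2.16, 17.4, 44.6, 1.65, 3.99 and 2.995 FPKM at 1 to 8 h, against 12.4 FPKM at 0 h, with the highest values at 2 and 5 h. Neither isoform passed over 1 to 8 h (Cox7a1 1.91 ± 0.80, adjusted p = 0.124 in limma; Cox8b 1.96 ± 0.81, adjusted p = 0.122). The part of fat or heart tissue in these values was not tested.

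**Figure D4:**
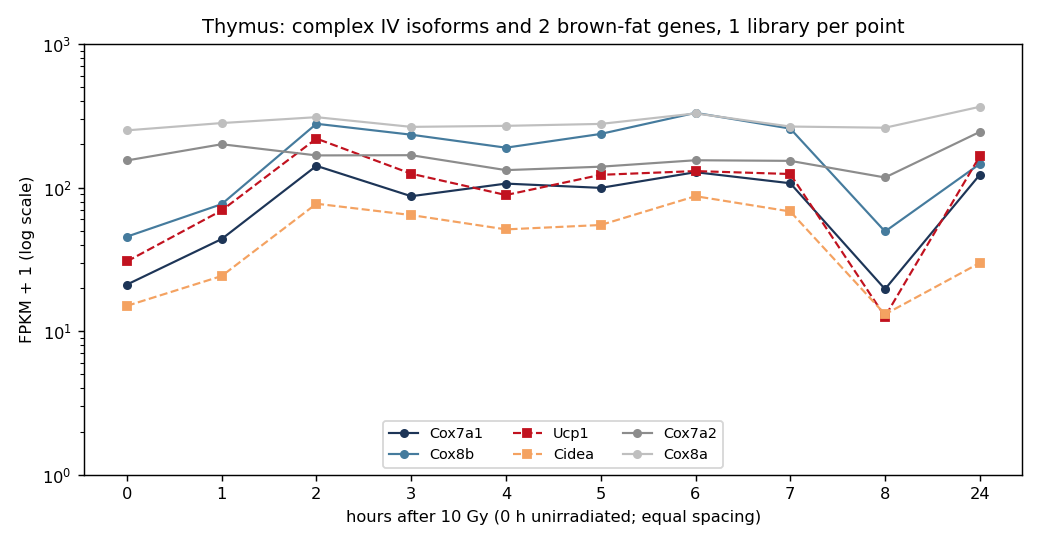
FPKM + 1 (log scale) in thymus by hour after 10 Gy for the restricted complex IV isoforms Cox7a1 and Cox8b, their ubiquitous counterparts Cox7a2 and Cox8a, and the brown-fat genes Ucp1 and Cidea, 1 library per point. Cox7a1, Cox8b, Ucp1 and Cidea are all low at 0 h and at 8 h, while Cox7a2 stays between 116.6 and 243.3 FPKM.

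A minority of members fell between the early and late hours of irradiated thymus. Set against 1 to 5 h, 13 of 76 members fell and 0 rose at 6 to 8 h, where 13.5% of all genes tested fell and 18.7% rose (32.1% in either direction). The share of members that fell was near the background. The members' median was -0.189, against -0.002 over all genes tested. By complex, 7 of 15 members of complex V fell, 5 of 36 of complex I, 1 of 13 of complex IV and none of complexes II and III, and the medians were -0.300 (V), -0.179 (I), -0.174 (IV), -0.211 (II) and -0.186 (III). The complex V count includes Atp5g1, with values listed near 0, and the assembly-related Atp5s and Atp5sl. Leaving out the 8 h library gave 5 fallers and leaving out the 1 h library 6, with no riser in either case. Quantile normalization gave 44 fallers and no riser, where 22.4% of all genes tested fell and 18.2% rose.

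Atp5c1, the gamma subunit that forms the shaft of ATP synthase, had 123.7, 132.9 and 97.5 FPKM at 6 to 8 h, against 219.6, 167.9, 162.8, 142.8 and 133.5 FPKM at 1 to 5 h. The groups did not overlap, with a log2 difference of -0.47 ± 0.11 (adjusted p = 0.00152 in limma). Atp5k, a small subunit of the membrane part, had 287.2, 278.6 and 225.1 FPKM at 6 to 8 h, against 505.0, 395.2, 422.9, 381.7 and 237.5 FPKM at 1 to 5 h (-0.52 ± 0.18, adjusted p = 0.0242). Its 5 h value lay among the later ones. Ndufs6, a zinc-binding subunit of complex I, had the smallest p of the 13, with 45.6 ± 6.66 FPKM at 6 to 8 h (n = 3) and 65.2 ± 7.98 FPKM at 1 to 5 h (n = 5), a difference of -0.51 ± 0.10 (adjusted p = 0.000447 in limma). Among the others, Atp5o, Atp5h, Atp5s and Atp5sl of complex V, Ndufv3, Ndufb5, Ndufb11 and Ndufc2 of complex I, and Cox7a2l fell by 0.28 to 0.54 on the log2 scale. Atp5g1 was listed at 7.60, 0.0224 and 0.000433 FPKM at 6 to 8 h, against 7.49 to 9.29 FPKM at 1 to 5 h, and its call rests on 2 values listed near 0.

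**Figure D5:**
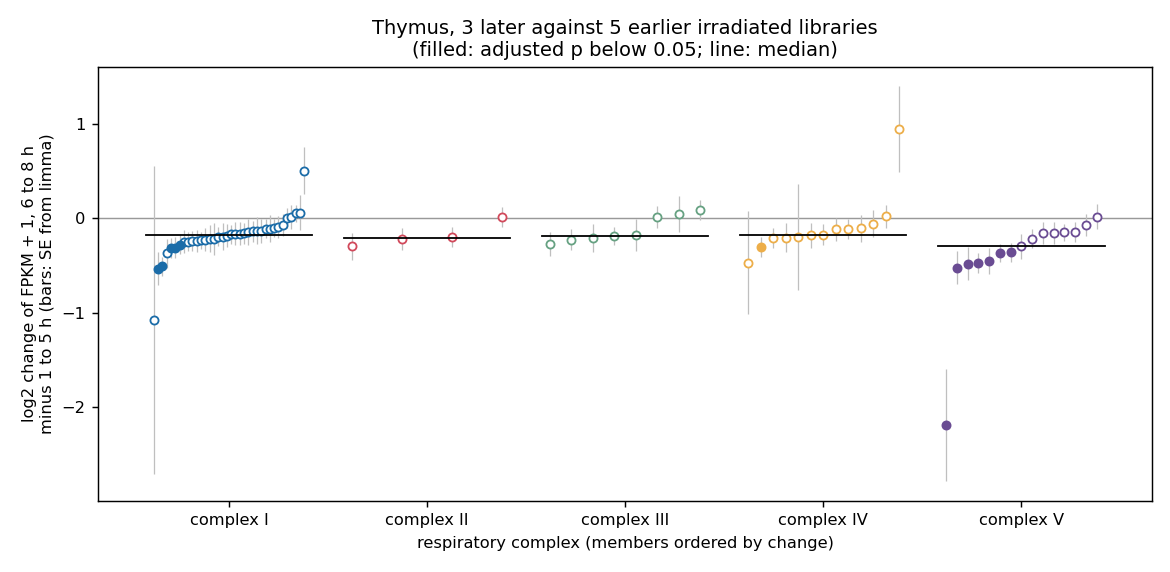
Log2 change of FPKM + 1 in thymus between the 3 libraries of 6 to 8 h and the 5 of 1 to 5 h for each of the 76 members, by respiratory complex, with SE from limma. Filled points have an adjusted p below 0.05 and lines are medians over members: 7 of the 13 filled points lie in complex V. Among these are Atp5g1, with values listed near 0, and the assembly-related Atp5s and Atp5sl.

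Other mitochondrial genes gave a mixed picture in the same contrast. Of 44 assembly factors tested, 2 rose and 6 fell, among them Cox18 (1.68 ± 0.54, adjusted p = 0.0195 in limma), which inserts a mitochondrially encoded subunit into the membrane, and Cox20 (-0.55 ± 0.15, adjusted p = 0.00689). Of 13 biogenesis regulators, 2 rose and 4 fell: Myc rose by 1.12 ± 0.33 (adjusted p = 0.0116) and Tfam, which packages mitochondrial DNA, fell by 0.42 on the log2 scale (adjusted p = 0.0179). Mitochondrial ribosomal protein genes gave 2 risers and 15 fallers of 75, and the 18 genes of the tricarboxylic acid cycle 0 and 1. Glycolysis gave 3 risers and 0 fallers of 12. The 523 other genes with transcripts under 1000 bases had a median of -0.006. The 5 T cell markers summed to between 703.5 and 838.4 FPKM at 6 to 8 h, against 1161 to 1494 FPKM at 1 to 5 h, and 3 macrophage markers to 183.0 to 229.0 FPKM, against 69.7 to 152.1 FPKM. The smooth muscle markers summed to between 77.7 and 183.8 FPKM at 6 to 8 h, against 18.2 to 65.5 FPKM at 1 to 5 h, and the 2 keratinocyte markers in the table to between 40.9 and 102.9 FPKM, against 23.6 to 35.2 FPKM. The part of cell composition in the members' fall was not tested.

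At 24 h, thymus members stood above 0 h, but this comparison rests on the library that holds small intestine RNA. As deposited, the 5 T cell markers summed there to 242.2 FPKM, against 1613 FPKM at 0 h. The 3 macrophage markers summed to 348.8 FPKM, against 81.28 FPKM, and the 3 adipocyte markers to 1725 FPKM, against 352.2 FPKM. The part of cell composition in the changes of this paragraph was not tested. A total of 27 of 76 rose and 0 fell against 0 h (median 0.497), where 26.4% of all genes tested rose and 18.6% fell (45.0% in all) with a median of 0.146. The highest changes among called members were those of Uqcrb (1.34 ± 0.20), Ndufa5, a subunit of the arm of complex I that reaches into the matrix (1.21 ± 0.23), and Ndufa4 (1.08 ± 0.27), with adjusted p-values of 1.45e-05, 0.000156 and 0.00250 in limma. After the small intestine share was taken off the library, 12 rose and 3 fell, 12 of the 27 were still called, and the median was 0.155, where 21.7% of all genes tested rose and 21.1% fell with a median of 0.032. Uqcrb then stood at 174.8 FPKM at 24 h, against 82.7 FPKM at 0 h (1.07 ± 0.20, adjusted p = 0.000206), and Ndufa5 at 120.6 FPKM, against 62.2 FPKM (0.95 ± 0.23, adjusted p = 0.00191). With quantile normalization of the deposited values, which moved the median of all genes by -0.285, 3 rose and 7 fell, where 21.5% of all genes tested rose and 28.7% fell.

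Spleen changed in few members, and not in 1 direction. Over 1 to 8 h against 0 h, 1 of 75 rose and 2 fell, where 5.03% of all genes tested rose and 3.66% fell (8.68% in all). Atp5sl had 19.1, 12.9, 17.7, 18.3, 18.2, 12.2, 11.96 and 15.6 FPKM at 1 to 8 h, against 30.0 FPKM at 0 h (-0.91 ± 0.20, adjusted p = 0.00476 in limma), and 15.1 FPKM at 24 h. Cox7a2l had 144.0, 111.9, 103.1, 104.7, 113.3, 103.9, 94.5 and 96.2 FPKM at 1 to 8 h, against 160.8 FPKM at 0 h (-0.57 ± 0.15, adjusted p = 0.0197). All irradiated libraries of both genes lay below 0 h. Outside the name rule, Ndufab1 of complex I averaged 6.51 ± 2.34 FPKM at 1 to 8 h (n = 8), against 1.38 FPKM at 0 h. Its log2 change was 1.59 ± 0.35, and all irradiated libraries of 1 to 8 h lay above 0 h. Ndufb6, a membrane subunit of complex I, averaged 88.8 ± 15.3 FPKM at 1 to 8 h (n = 8), against 61.4 FPKM at 0 h (0.51 ± 0.14, adjusted p = 0.0223), with the 1 h library at 60.2 FPKM. A single call (1 faller) was left when spleen was fitted alone, and quantile normalization gave 1 riser and 4 fallers (5.29% and 6.17% of all genes tested).

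In spleen, Cox5a and Sdhc were higher late than early. Cox5a, a subunit of cytochrome c oxidase, had 140.9, 176.3, 178.9, 175.6, 201.9, 193.6, 243.6 and 249.6 FPKM at 1 to 8 h and 316.1 FPKM at 24 h, against 143.2 FPKM at 0 h. Its change at 24 h was 1.14 ± 0.28 (adjusted p = 0.00553 in limma, up to 0.0790 over 14 alternatives, the highest with quantile normalization) and between 6 to 8 h and 1 to 5 h 0.39 ± 0.14 (adjusted p = 0.0441, up to 0.333). Sdhc, a membrane anchor of succinate dehydrogenase, had 68.5, 72.9 and 86.3 FPKM at 6 to 8 h, against 60.9, 49.5, 54.8, 54.9 and 63.5 FPKM at 1 to 5 h, with no overlap and with values below 0 h at 2 to 4 h (0.41 ± 0.11, adjusted p = 0.00744), and 105.8 FPKM at 24 h, against 60.2 FPKM at 0 h (0.80 ± 0.21, adjusted p = 0.0102). Between 6 to 8 h and 1 to 5 h, 4 of 75 rose (Cox6b2, Sdhc, Cox5a and Ndufa8) and 1 fell (Atp5s, -0.50 ± 0.18, adjusted p = 0.0346), where 15.6% of all genes tested rose and 12.3% fell (27.8% in all). The count was 2 without the 4 h or the 8 h library and 8 without the 1 h library, and quantile normalization gave 2 risers and 8 fallers (14.1% and 17.6% of all genes tested).

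At 24 h against 0 h, 3 of 75 spleen members rose (Cox5a, Sdhc and Atp5g1) and 1 fell (Atp5sl), where 13.2% of all genes tested rose and 7.51% fell (20.8% in all). Quantile normalization, which moved the median of all genes by -0.124, gave 2 risers and 3 fallers (11.6% and 11.8% of all genes tested). Atp5g1 was listed at 9.86 FPKM at 24 h and near 0 at 0 h (0.0224 FPKM), and values under 0.5 FPKM also stood at 3, 4, 5 and 7 h. In the same contrast, 28 of 59 cytoplasmic ribosomal protein genes fell and 1 rose (median -0.829), and 0 of 44 assembly factors fell and 1 rose. The 4 B cell markers summed to 263.4 FPKM at 24 h, against 1990 FPKM at 0 h, and the 3 macrophage markers to 1358 FPKM, against 442.2 FPKM. The part of cell composition in these changes was not tested. Without the 6 h library, which held the pancreas signal, the change of Cox5a between 6 to 8 h and 1 to 5 h was 0.50 (adjusted p = 0.0277 in limma).

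In NIH3T3 the medians of complexes I and V lay below 0 h in every irradiated library, though not every member did. The listed genes summed to 412100 FPKM at 0 h and to between 339100 and 387000 FPKM in the irradiated libraries. The complex I median lay between -0.533 and -0.169 from 0 h over all 13 irradiated libraries, and complex V between -0.496 and -0.214. Over 1 to 8 h, 69 of 72 members had a negative value (median -0.299), 41 had an unadjusted p under 0.05, and 3 fell with none rising in limma, where 2.76% of all genes tested rose and 1.70% fell (4.47% in all). These were Ndufb10, with 176.1 ± 17.1 FPKM at 1 to 8 h (n = 8), against 242.7 FPKM at 0 h (-0.47 ± 0.12, adjusted p = 0.0407), Ndufa9 (-0.43 ± 0.11, adjusted p = 0.0462) and Ndufb5 (-0.40 ± 0.10, adjusted p = 0.0437), all subunits of complex I. The 383 other genes with transcripts under 1000 bases had a median of -0.288 and the 54 cytoplasmic ribosomal protein genes one of -0.292, close to that of the members. With quantile normalization the members' median was -0.123 over 1 to 8 h and -0.107 at 24 h, both against 0 h. With no filter and with quantile normalization, the count was 0, as it was without the 4, 5, 7, 8 or 10 h library, while leaving out 2 h gave 8 fallers, 9 h gave 7, 3 h or 12 h gave 5 and 11 h gave 1.

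At 24 h against 0 h, 8 of 72 NIH3T3 members fell and 0 rose (median -0.312), where 5.64% of all genes tested rose and 5.40% fell (11% in all). They were Cox7a2 (-0.80 ± 0.20, adjusted p = 0.0222 in limma), Atp5k, Atp5c1 and Atp5j of complex V, Uqcrb and Uqcrfs1 (the Rieske iron-sulfur protein) of complex III, and Ndufa9 and Ndufb8 of complex I, with changes of -0.74 to -0.45. The count was 4 with no filter and 3 with quantile normalization, and 5 without the 4, 5, 10 or 11 h library and 12 without the 9 h library. Glycolytic genes moved further, as 8 of 12 fell with a median of -0.753, among them Ldha, lactate dehydrogenase A (-1.56 ± 0.16, adjusted p = 0.000165). Against 1 to 5 h, 0 of 72 members passed at 6 to 8 h (7 with an unadjusted p under 0.05, background 2.30%). At 9 to 12 h, 1 of 72 members fell, Atp5g3 (-0.22 ± 0.07, adjusted p = 0.0414 in limma), where 7.04% of all genes tested rose and 6.52% fell (13.6% in all), with 409.0 ± 25.7 FPKM (n = 4), against 476.9 ± 13.6 FPKM at 1 to 5 h (n = 5). This call was lost with no filter and without the 1, 2, 3, 4, 5, 9 or 11 h library, each of which gave 0 members, and quantile normalization gave 3 risers and 0 fallers (6.56% and 5.92% of all genes tested).

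Members that did not pass the filter, and values listed near 0, limit what can be said of a few genes. A mean of at least 1 FPKM in the system was met by all 76 members in large intestine and thymus, by 75 in small intestine and spleen (not Cox8b) and by 72 in NIH3T3 (not Cox6b2, Cox7a1, Cox8b and Ndufs5). Ndufs5, an accessory subunit of complex I, was listed below 0.5 FPKM in 35 of 54 libraries and at 10 FPKM or more in 16, up to 61.6 FPKM, with both kinds in neighbouring hours of every tissue. In thymus it was listed at 0.169, 35.5, 18.6, 0.0162, 32.0, 0.168, 40.8 and 0.0149 FPKM at 1 to 8 h, against 36.6 FPKM at 0 h. Atp5g1 was listed below 0.5 FPKM in 8 libraries, all in spleen and thymus. Calls that rest on such values are those of Atp5g1 in thymus at 6 to 8 h and in spleen at 24 h and of Atp5g1 and Ndufs5 between the intestines and the lymphoid tissues, and they are included in the counts above.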

How the data were processed

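Poly(A)-selected, non-directional libraries were made from RNA extracted with Trizol, per the labels' protocols. The deposited values are FPKM, which the authors made with TopHat2 2.1.0 and Cufflinks 2.1.1 on mm10, per the submitters' processing notes; their settings are not stated. The number of fragments per library is unknown, and steps in low values put the deepest library of a system at roughly 1.93 to 2.41 times the shallowest. No column was left unmapped.

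From these values, limma 3.58.1 in R 4.3.3 was fitted with an expression trend to log2(FPKM + 1), with a mean for each system and window of hours, over genes with a mean of at least 1 FPKM in the system. One fit held the 40 tissue libraries (20 residual degrees of freedom) and another the 14 NIH3T3 libraries (8). A pseudocount of 1 understates the change of low genes. Two-sided p-values were adjusted by Benjamini-Hochberg over all genes tested, with a threshold of 0.05. The procedure was tested on simulated data. Alternatives were a pseudocount of 0.1, no filter, quantile normalization, values near 0 set to missing, separate fits, other windows, left-out libraries and the hour as a block.

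Members and lists were chosen with earlier results of these data known. Named were the called members (up to the 12 largest changes in each direction), the largest change of each complex, isoform families and members listed near 0; genes of other lists were named after their values were seen. Positions are from GENCODE M21 (GRCm38) and promoters from RefSeq GRCm38.p6. Tables and plots were made with Python 3.11.15.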

Additional observations from a re-analysis of the deposited data

Results flagged for a closer look

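Chance alone would mark about 1 in 20 groups of libraries if the groups were independent, and 10 of the 94 groups examined held a library far from the rest. Many groups share the same libraries along a time course, so this count cannot be set against that rate. In thymus, the 8 h library stood below the other libraries of 1 to 8 h in the median change from 0 h of complex I (-0.248), complex II (-0.399) and complex III (-0.163), and in Cox4i1 (357.1 FPKM). In the same tissue, Cox6b2 was lowest at 1 h (21.68 FPKM). In NIH3T3, the 7 h library stood lowest in the median change of complex I (-0.533) and complex V (-0.496), and the 1 h library in Cox7a2l (78.59 FPKM). In large intestine, the 4 h library stood highest in complex I (0.205), and in spleen Cox7a2l was highest at 1 h (144.0 FPKM).

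The complex I median lay above 0 h in small intestine and below 0 h in spleen at every hour from 1 to 8 h, and the medians of the hourly values differed by 0.3715 on the log2 scale. Complex I lay above 0 h in small intestine and below 0 h in NIH3T3 in the same way, with a difference of 0.486, and complex III with one of 0.464. Each of these rests on 1 library at 0 h per system, and the difference was not tested.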

How the results depend on the processing

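Counts of called members changed with the scaling, the filter, the fit and single libraries. With quantile normalization they were 5 in spleen at 1 to 8 h, 10 in spleen at 6 to 8 h, 44 in thymus at 6 to 8 h, 10 in thymus at 24 h, 1 for the change in spleen and thymus minus that in the intestines, and in NIH3T3 0 at 1 to 8 h, 3 at 24 h and 3 at 9 to 12 h. Under the same scaling Cox6c in thymus at 24 h (-0.011) and Atp5e in thymus minus spleen (0.115) reversed. With no filter, NIH3T3 gave 0 at 1 to 8 h, 4 at 24 h and 0 at 9 to 12 h. With each tissue fitted alone, spleen gave 1 at 1 to 8 h, 3 at 6 to 8 h and 2 at 24 h, and thymus 8 at 6 to 8 h. Taking the small intestine share off the thymus 24 h library, an alternative chosen after seeing the data, gave 15. The cause was not tested.

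Leaving out 1 library at a time gave 0 to 2 members in large intestine at 6 to 8 h, 3 to 4, 2 to 8 and 4 to 5 in spleen at 1 to 8, 6 to 8 and 24 h, 2 to 4, 5 to 18 and 27 to 32 in thymus at the same times, 0 to 8, 5 to 12 and 0 to 1 in NIH3T3 at 1 to 8, 24 and 9 to 12 h, and 0 to 1 for the difference between tissues. The level comparisons gave 74 to 75, 56 to 59 and 41 to 51. The labels do not say whether tissues of an hour came from the same animal. Of 48 pairs of libraries of an hour, 5 correlated above 0.1 (range -0.127 to 0.324), and 10 correlated best at their own hour. The 1 h and 2 h values repeat each other because their window holds 2 libraries, so this check cannot settle the pairing. With the hour as a replicate block the level counts were 75, 54 and 45. For 97 values of named members, 575 settings other than leaving out 1 library were run, some of them without the mixed libraries. Of these, 501 gave the same call, 72 a weaker one and 2 a reversed one. Of 1952 settings without 1 library, 1843 gave the same call and 109 a weaker one.

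With 1 library at 0 h and 1 at 24 h per system, these were assumed to vary like the windows. Depth per library is unknown, so no counting error is given.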
